A study of Homo sapiens with 4 samples.

Results

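Among the double-strand breaks recorded in U2OS cells that received the VEGFA site 2 guide, 27 of 606 loci carried a protospacer close to the guide beside a protospacer-adjacent motif (PAM) other than NGG. U2OS is a human osteosarcoma line. Breaks were mapped by TTISS-seq, in which a short DNA tag is joined to broken ends inside the cell and the tagged junctions are then amplified and sequenced. The group labelled VEGFA site 2 (wild-type cells, treatment digested with that sgRNA) and the group labelled non-target (wild-type cells, treatment undigested, guide not named) each held 2 libraries numbered as replicates. The labels do not say whether replicates came from separate cultures, so the spread between them may be technical.

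The 27 sites were chosen by sequence. Break positions within 30 nt of each other were merged into 1 locus, which gave 689 loci in the 4 libraries. Of the 606 loci with a VEGFA site 2 position, 395 were set aside because a protospacer of up to 7 mismatches lay beside NGG, and 66 because a protospacer beside NGG matched once a 1-nt gap was allowed, with up to 5 mismatches. The remaining 145 loci were searched for an ungapped protospacer of up to 5 mismatches beside any other PAM, whose predicted cut, 3 nt inside the protospacer from the PAM, fell no more than 3 nt from the break. This left 27 sites, with 14 beside NAG, 5 beside NGA and 8 beside another PAM. None of the 83 loci seen only in non-target libraries met the same rule, and the best of them had 7 mismatches. Loci also listed with the guide are by definition not among these 83, so this is not a background rate for the rule. Of the 27 sites, 3 were also listed in non-target replicate 1.

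Cas9 of Streptococcus pyogenes first binds the PAM directly and then unwinds the adjacent DNA, pairing the guide with the protospacer from the PAM-proximal end, called the seed, outwards. NGG is its preferred PAM, and NAG and NGA are known as weaker alternatives. Mismatches in the seed are on the whole tolerated less than mismatches at the PAM-distal end. The VEGFA site 2 guide is rich in C and has long been used in off-target studies because it has many similar sequences in the genome.

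Sites with high counts beside NAG, NGA and other PAMs are written below 5′ to 3′ on the strand of the protospacer, as 20 nt followed by the PAM. Capitals mark mismatches to the guide and the 3 letters of the PAM, and coordinates are those of the 20-nt protospacer in hg38.
RASGEF1C, chr5:180161285-180161304, plus strand: gacTccctccGccccgcTtcCAG
ZBTB5, chr9:37465351-37465370, plus strand: CCccccTCccaccccgcctcTAG
EFCAB11, chr14:89936961-89936980, plus strand: gTccccTCccaccccgcctcCAG
CCDC40, chr17:80082485-80082504, plus strand: CCTccccAAcaccccgcctcAAG
EDC3, chr15:74690776-74690795, plus strand: TTccAccCccaccccgcctcAGA
near POU3F2, chr6:98825032-98825051, plus strand: gCcAcccCccaccccgcctcTGC
These lines are examples and do not stand for all 27 sites. All but the RASGEF1C line have their mismatches in the left, PAM-distal part, whereas 16 of the 27 sites, among them MICB, MRPL43, ASAP3, CDC40 and ME3, had at least 1 mismatch in positions 11 to 20.

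The deposited lists hold a read count for each break position. VEGFA site 2 replicate 1 totalled 2855164 counts and replicate 2 totalled 3182992, while the non-target lists totalled 29017 and 60660. Counts are given below also as a share of the total of their own list. The rule for entering a list is not given in the sources used here, and the lowest count was 1 or 2, so an unlisted site may have held reads. The intended VEGFA site held 52810 and 64011 counts in the VEGFA site 2 libraries and 22 and 60 in the non-target libraries, and ranked 14 among the 606 loci. Intervals are 95% Wilson intervals and cover counting error only, since these are amplified reads without stated molecular identifiers.

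The 27 sites together held 36808 counts in VEGFA site 2 replicate 1 and 46001 in replicate 2. These were 1.29% (1.28 to 1.30%) and 1.45% (1.43 to 1.46%) of the listed counts, or 1.37% ± 0.11 (SD, n = 2). NGG sites with 3 to 5 mismatches, 228 loci, held 79.2% ± 0.72. In the non-target libraries the 27 sites held 11 counts in replicate 1, or 0.0379% of that library, and none was listed in replicate 2. The share was therefore higher in both VEGFA site 2 libraries than in both non-target libraries, although the rule itself requires a listing in a VEGFA site 2 library. With 2 libraries against 2, the smallest two-sided p of an exact permutation test is 0.333.

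NAG was the most frequent PAM, at 14 of 27 sites or 51.9% (34.0 to 69.3%), and it held a larger part of the counts than of the sites. The NAG sites summed to 1.16% ± 0.0381 of listed counts, the NGA sites to 0.12% ± 0.0358 and the sites beside other PAMs to 0.0916% ± 0.0365 (SD, n = 2 each). NAG thus made up 84.5% of the share of the 27 sites, and NGA 8.80%. Among the NAG sites, CAG was read 9 times, TAG and AAG 2 times each and GAG 1 time. The 8 other PAMs were NGC at 4 sites, NTG at 2, NCA at 1 and NCG at 1.

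Whether a NAG site carried more counts than an NGA site depended on how unlisted sites were treated. Over the sites listed in a library, the median NAG count was 2482 in replicate 1 (9 sites) and 1627 in replicate 2 (11 sites). The median NGA count was 611 and 413 over the same 5 sites. For other PAMs it was 382 over 5 sites and 372 over 7 sites. The ratio of median shares between NAG and NGA was 4.06 and 3.94, between NAG and other PAMs 6.50 and 4.37, and between NGA and other PAMs 1.60 and 1.11. Individual sites overlapped widely between the classes, since NAG counts ran from 154 to 16472, NGA counts from 86 to 1927 and other counts from 26 to 1359. Over the sites listed in both libraries the ratio of NAG to NGA was 5.35 and 7.80. With unlisted sites counted as 0, a setting chosen after the data were seen, the medians of the 14 NAG sites were 591.5 and 494.5 counts against 611 and 413 for NGA, a ratio of median shares of 0.968 and 1.20. The median of the mean share over all sites was 0.0171% for NAG and 0.0172% for NGA, so no NAG excess was seen on that measure.

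The site in intron 1 of RASGEF1C, which encodes a protein of the Ras guanine nucleotide exchange factor family, led the NAG class. Of its 3 mismatches, 2 lay in positions 11 to 20, counted from 1 at the 5′ end of the guide. It held 15813 counts in replicate 1 and 16472 in replicate 2, and 6 in non-target replicate 1. These were 0.554% (0.545 to 0.563%) and 0.518% (0.510 to 0.525%) of listed counts, 39.2% of the summed share of the 27 sites. It ranked 47 among the 606 loci.

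The second site lay in the 5′ untranslated part of exon 1 of ZBTB5, a zinc finger transcription factor gene, 84 nt from its start. It had 4969 and 5412 counts, with 3 in non-target replicate 1, and ranked 89. All 4 of its mismatches were PAM-distal. No other site of the 27 was among the first 100 loci.

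EFCAB11 intron 3 and MICB followed with similar means and opposite orders between the replicates. The EFCAB11 site held 4018 counts in replicate 1 and 2401 in replicate 2. The MICB site held 2523 and 4042, and lay within the MICB gene but outside its canonical transcript, 167 nt from its start. MICB encodes a stress-induced ligand of the NKG2D receptor of natural killer cells. Neither site was listed in a non-target library.

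The site at MRPL43, which encodes a protein of the mitochondrial ribosome, shows how far single sites could differ between replicates. It lay beside CAG at chr10:100969483-100969502, 5 nt from the start of SEMA4G, and held 5966 counts in replicate 2 but was not listed in replicate 1. The site in intron 12 of CCDC40, a gene needed for motile cilia, was listed in both, with 2482 and 1627 counts despite 5 mismatches. All 5 were PAM-distal. The NAG site at ST8SIA1, which encodes ganglioside GD3 synthase, held 939 and 327 counts.

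Lower NAG sites were listed in 1 library each. The site near RBMXL2 had 716 counts in replicate 1 and the site in the 3′ untranslated part of exon 28 of ANKRD52 had 467, also in replicate 1. AOAH intron 16 had 571 counts, AUTS2 intron 1 had 418, an intergenic site near HLA-F 239 and the site at TADA3 154, all in replicate 2. DIRC3 intron 1 had 290 counts in replicate 1. These 7 sites carried 3 to 5 mismatches.

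All 5 NGA sites were listed in both libraries. The site in intron 17 of ASAP3, which encodes an Arf GTPase-activating protein, had 741 and 1927 counts. The site in intron 2 of CDC40, a splicing factor gene, had 717 and 1808, and 2 in non-target replicate 1. Both had a TGA PAM and a mismatch at position 16, and both were higher in replicate 2.

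EDC3 intron 1, in a gene for an enhancer of mRNA decapping, held 611 and 413 counts beside AGA. IDO2 intron 4, in a gene of tryptophan catabolism, held the lowest NGA counts, 86 and 286. So 3 of the 5 NGA sites were higher in replicate 2 and the other 2 in replicate 1.

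Beside other PAMs, the highest counts were at a TGC site 9527 nt from the start of POU3F2, a neural transcription factor gene, with 482 and 1359. The CTG site in intron 6 of ME3, which encodes a mitochondrial malic enzyme, held 588 and 1010 counts. A CGC site near CASZ1 held 382 and 604 despite 5 mismatches, and a TGC site in intron 3 of LTBP2, a gene of the extracellular matrix, held 298 and 372. These 4 sites were listed in both libraries and all were higher in replicate 2.

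The 2 sites of 1 mismatch were among the weakest of the 27. The AGC site near CYP26B1, with its mismatch at position 7, had 128 counts in replicate 1 and was not listed in replicate 2. The GTG site in intron 3 of ITPK1, an inositol kinase gene, with its mismatch at position 1, had 26 counts in replicate 2, was not listed in replicate 1 and ranked 596 of 606. Both were seen in 1 library only. Within the same class of PAMs, 3 sites with 3 mismatches had a median mean share of 0.0262% and 3 sites with 5 mismatches 0.00298%. The last 2 sites, beside GCG and CCA with 5 mismatches each, had 190 and 176 counts, both in replicate 2.

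At a given number of mismatches, the sites beside other PAMs lay below NGG sites in median share in both libraries. With 3 mismatches, their median share was 0.0705 times that of NGG loci in replicate 1 (9 sites listed) and 0.181 times in replicate 2 (8 sites). With 4 mismatches the ratios were 0.139 over 6 sites in replicate 1 and 0.0733 over 8 sites in replicate 2. With 5 mismatches they were 0.39 over 3 sites and 0.411 over 6 sites. The NGG loci listed were 19 in each library with 3 mismatches, 66 and 71 with 4, and 110 and 112 with 5. For NAG alone with 3 mismatches the ratios were 0.392 over 4 sites and 0.463 over 3 sites. They were 0.0481 and 0.12 for the 2 NGA sites, and 0.0578 and 0.116 for 3 sites beside neither NAG nor NGA. With 4 mismatches the order did not hold. The ratios were 0.179 over 3 NAG sites and 0.0648 over 5 NAG sites, and 0.117 and 0.0818 over 3 NGA sites. NAG sites with 5 mismatches gave 1.42 in replicate 1, where 2 were listed, and 0.475 in replicate 2, where 3 were, so no order against NGG could be read there. The ratios were computed over listed sites, so they leave out sequences that never entered a list.

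The genome offers many more sequences of this kind than were listed, and the listed part fell steeply from NGG to other PAMs. In hg38, 35 protospacers with 3 mismatches stood beside NGG and 21 of them were listed, or 60% (43.6 to 74.4%). Beside NAG it was 4 of 28, or 14.3% (5.70 to 31.5%), beside NGA 2 of 23, or 8.70% (2.42 to 26.8%), and beside other PAMs 3 of 653, or 0.459% (0.156 to 1.34%). The NAG and NGA intervals overlapped, whereas the NGG interval lay above all of them.

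With 4 mismatches, 75 of 456 NGG protospacers were listed, or 16.4%, against 6 of 448 beside NAG (1.34%), 3 of 316 beside NGA (0.949%) and 0 of 8292 beside other PAMs. With 5 mismatches, 132 of 3904 NGG protospacers were listed (3.38%), 4 of 4232 beside NAG (0.0945%), 0 of 2315 beside NGA and 3 of 75862 beside other PAMs (0.00395%). The listed part thus dropped between 3 and 5 mismatches in every class. Over 3 to 5 mismatches it was 5.19% for NGG, 0.297% (0.177 to 0.499%) for NAG, 0.188% (0.0805 to 0.440%) for NGA and 0.00707% (0.00324 to 0.0154%) for other PAMs. Counting only sites listed in both libraries, it was 0.127% for NAG and 0.188% for NGA, so the order of these PAMs turned. These shares also rest on the removal of loci with a gapped NGG match. Without it, 18 sites stood beside NAG, 15 beside NGA and 25 beside other PAMs, and the listed part was not recomputed.

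Closer matches beside these PAMs were few in the genome and mostly unlisted. No NAG or NGA protospacer had fewer than 2 mismatches, and 0 of 4 NAG and 0 of 1 NGA protospacers with 2 mismatches were listed. Beside other PAMs, 2 of 9 protospacers with 1 mismatch and 0 of 49 with 2 mismatches were listed. By the last 2 letters of the PAM and up to 5 mismatches, 4 of 5912 NGC, 2 of 4335 NTG, 1 of 1949 NCG and 1 of 7056 NCA protospacers were listed. None was listed beside any other pair of last letters.

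Mismatches were concentrated at the PAM-distal end. Of the 27 sites, 11 had no mismatch in positions 11 to 20, 14 had 1, 2 had 2 and none had more. Among NGG loci with 3 to 5 mismatches the numbers were 20, 118, 77 and 13 of 228. For a comparison at an equal number of mismatches, all sites beside PAMs other than NGG were pooled. With 3, 4 and 5 mismatches, their mean number in positions 11 to 20 was 0.667, 0.667 and 0.857. For NGG loci it was 1.05, 1.28 and 1.49. Genomic protospacers of the same mismatch numbers, listed or not, had means of 1.44, 1.78 and 2.33 beside PAMs other than NGG. Beside NGG their means were 1.49, 1.95 and 2.79. Listed sites had fewer seed mismatches than the genomic supply in both PAM groups and at each number of mismatches.

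The seed was fully matched in 4 of 9 listed sites with 3 mismatches (18.9 to 73.3%), against 73 of 704 genomic protospacers (8.33 to 12.8%) beside PAMs other than NGG. With 4 mismatches it was 3 of 9 (12.1 to 64.6%) against 181 of 9056 (1.73 to 2.31%), and with 5 mismatches 2 of 7 (8.22 to 64.1%) against 328 of 82409 (0.357 to 0.443%). These intervals did not overlap. Of the 704 genomic protospacers, 653 stood beside neither NAG nor NGA. For NAG alone with 3 mismatches the intervals overlapped, at 1 of 4 (4.56 to 69.9%) against 2 of 28 (1.98 to 22.6%). With 4 mismatches they overlapped too, at 1 of 6 (3.01 to 56.4%) against 9 of 448 (1.06 to 3.77%). With 5 mismatches they did not, at 1 of 4 (4.56 to 69.9%) against 21 of 4232 (0.325 to 0.757%). For NGG loci the intervals overlapped with 3 mismatches, at 5 of 21 (10.6 to 45.1%) against 5 of 35 (6.26 to 29.4%). With 4 or 5 mismatches the NGG intervals did not overlap. Sites are not replicates, and these shares were not tested.

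The PAM classes differed little in mismatch number at this sample size. Sites beside NAG had 4.0 ± 0.784 mismatches, sites beside NGA 3.6 ± 0.548 and sites beside other PAMs 3.25 ± 1.67 (SD over 14, 5 and 8 sites). NAG sites ran from 3 to 5 mismatches, NGA sites from 3 to 4 and the others from 1 to 5. In the seed, NAG sites had a mean of 0.857 mismatches, NGA sites 0.4 and the others 0.5, and 10 of the 14 NAG sites had exactly 1.

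Some positions were mismatched often and others never. Position 2 was mismatched in 22 of 27 sites (81.5%, 63.3 to 91.8%), and positions 1 and 8 in 16 each. Positions 10, 12 to 15 and 17 were mismatched in none, which allows up to 12.5% each by the same interval. In the seed, position 16 carried most mismatches, at 10 sites or 37.0%, all of them the same base change. That change was present in 26.8% of NGG loci with 3 to 5 mismatches, and the intervals of the shares overlapped. Elsewhere the most frequent single base change lay at position 8, in 13 sites, followed by one at position 1, in 11.

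Position 19 was mismatched in 2 of 27 sites, or 7.41% (2.06 to 23.4%), and in 42.1% (35.9 to 48.6%) of NGG loci with 3 to 5 mismatches. The groups did not hold the same mismatch numbers, and at 3, 4 and 5 mismatches position 19 was mismatched in 0 of 9, 1 of 9 and 1 of 7 sites against 5 of 21, 29 of 75 and 62 of 132 NGG loci. The genomic supply differed as well. Beside PAMs other than NGG, position 19 was mismatched in 24%, 24.9% and 29.9% of genomic protospacers with 3, 4 and 5 mismatches. Beside NGG it was mismatched in 20.0%, 31.8% and 50.7% of them. Within each mismatch number the intervals of the listed sites and of the listed NGG loci overlapped. Those of the genomic protospacers beside NGG and beside other PAMs overlapped with 3 mismatches but not with 4 or 5.

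Breaks lay at the expected cleavage position or 1 nt from it. In replicate 1, 13 of 19 listed sites stood at that position, 2 lay 1 nt away from the PAM and 4 lay 1 nt towards it. In replicate 2 it was 12, 6 and 5 of 23 sites. None lay further, although the rule allowed 3 nt. Of NGG loci with 3 to 5 mismatches, 54.4% and 55.0% stood at the expected position, and 8 and 14 lay more than 1 nt from it. NGG loci were accepted with a predicted cut up to 10 nt from the break, against 3 nt for the sites. The numbers lying further are therefore not comparable between the groups. Over all 145 loci without an NGG match, a protospacer with up to 5 mismatches beside a PAM other than NGG was never placed 2 or 3 nt from the break. Beyond the limit, its cut position lay at -5 nt from the break at 2 loci, -4 nt at 1 and 10 nt at 1, positive towards the PAM.

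Best matches among those 145 loci fell into separate ranges. Of these, 2 had 1 mismatch, 9 had 3, 9 had 4, 7 had 5 and 3 had 6, none had 7, and the remainder had 8 to 15. The 3 loci just outside the limit, with 6 mismatches, held mean shares of 0.00218 to 0.00513%, each in 1 library only. The 7 sites just inside it, with 5, held 0.00276 to 0.069%.

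Of the 27 sites, 15 were listed in both VEGFA site 2 libraries, or 55.6% (37.3 to 72.4%). The remaining 12 were in 1 library, 4 in replicate 1 and 8 in replicate 2, with counts of 26 to 5966 and a median of 264.5. NGG loci with 3 to 5 mismatches were in both at 74.1% (68.1 to 79.4%). All 5 NGA sites were in both, against 6 of 14 NAG sites and 4 of 8 others. By mismatch number it was 8 of 9 sites with 3, 5 of 9 with 4, 2 of 7 with 5 and 0 of 2 with 1. For NGG loci it was 17 of 21 with 3, 62 of 75 with 4 and 90 of 132 with 5. The intervals overlapped at each of these 3 mismatch numbers, and with 3 mismatches the sites were not below the NGG loci. Over the 15 sites in both, the ratio of the share in replicate 2 to that in replicate 1 ran from 0.312 to 2.98 with a median of 1.12. Counts had a Spearman rho of 0.796 and log10 counts a Pearson r of 0.838 over these 15 sites, as a description across sites.

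For 1 site, an identical protospacer beside a different PAM was also listed. The ST8SIA1 site at chr12:22334710-22334729, beside GAG, shares all 20 nt with a protospacer beside CGG at chr2:128486625-128486644. The GAG copy held 939 and 327 counts and the CGG copy 5419 and 7893, so the CGG copy was higher in both libraries. The other 12 genomic copies, 2 beside NGA and 10 beside other PAMs, were not listed. Further copies of the protospacers at MICB (1 beside CAA), MRPL43 (2), AUTS2 (10, including 1 beside CAG and 1 beside an NGA PAM) and ITPK1 (3, all beside GTG within the same gene) were also not listed.
The shared protospacer, with mismatches and the GAG PAM in capitals, was:
ST8SIA1, plus strand: CCcccccCccaccccgccCcGAG

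VEGFA site 2 libraries were compared with non-target libraries over all loci by edgeR's quasi-likelihood test with Benjamini-Hochberg adjustment and listed totals as library sizes. Unlisted sites entered as 0. At an adjusted p threshold of 0.05, 4 of the 27 sites were called higher and none lower, where 26.6% of all 689 loci and 30.2% of the 606 loci listed with the guide were called higher. The called part of the sites was 14.8%. The rule requires a listing in a VEGFA site 2 library, and 24 of the 27 sites were in no non-target library. The direction at those 24 sites was therefore fixed by the selection, and the calls are not independent support for them. At an unadjusted p under 0.05, in either direction, there were 11 of 27 sites (40.7%) and 284 of 689 loci (41.2%). The sites did not stand apart from that background. It is not a matched one, since the 689 include 83 loci listed only in non-target libraries. The called sites were MICB (edgeR adjusted p = 0.0311), CCDC40 (0.0358), EFCAB11 (0.0367) and ME3 (0.045), none of them listed in a non-target library.

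The 3 sites with a non-target count were not called in this setting. For RASGEF1C the log2 fold change was 5.73 (edgeR adjusted p = 0.209), for ZBTB5 5.16 (0.201) and for CDC40 3.80 (0.209). These values rest on 6, 3 and 2 counts in non-target replicate 1. Without that library they were 16.4, 14.8 and 12.7, and without non-target replicate 2 they were 4.69, 4.06 and 2.57. Low non-target counts were not particular to these sites, since 73 of 231 NGG loci with up to 5 mismatches, the intended site included, were listed in a non-target library. Whether such counts were carried over between libraries was not tested, and a fold change against them is read with that limit. The value for CDC40 turned to -0.47 under TMM factors and under the size factors of DESeq2, which shifted log2 fold changes at the 122 loci listed in both groups by a median of -4.35 and -4.43. Leaving out 1 library left 1 in its group, so a change in calls there cannot be assigned to the values of the library left out. With either VEGFA site 2 library left out, the log2 fold changes of MICB, CCDC40, EFCAB11 and ME3 ran from 10.7 to 13.4.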

How the data were processed

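TTISS-seq break lists of 4 U2OS libraries (2 VEGFA site 2, 2 non-target) were analysed, grouped by their titles. The authors deposited 1 list per library, with break position, 60-nt sequence and a whole-number count per position. The counts were treated as raw read counts, since no normalization is stated; aligner, duplicate removal and listing rule are not given in the sources used here. The submitters' processing notes name hg38, and 1222 of 1223 listed sequences equalled hg38 at their position. The guide sequence was taken from the study's guide list. Sequences were matched on both strands with Python 3.11.15 scripts, which recovered implanted protospacers, and hg38 was scanned for protospacers of up to 5 mismatches; genes are from GENCODE 44. Loci within 30 nt were merged. Non-NGG protospacers whose cleavage position lay near an NGG match were left out of the genomic totals. Shares are percent of the listed counts of a library. edgeR 4.0.16 (glmQLFit) was the main count test, with DESeq2 1.42.0 as an alternative; it was tested on simulated data. Named sites were the 12 with the highest mean share, the first 4 in each PAM class, those with up to 3 mismatches and those listed in a non-target library; most remaining sites were named as well. The guide sequence, some protospacers and 1 site are not reported here, and sites on chromosome 8 are given without sequence. Sites and alternatives were chosen with earlier results of these data known.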

Additional observations from a re-analysis of the deposited data

How the results depend on the processing

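A limit of 4 mismatches gave a summed share of 1.26% and a ratio of median share between NAG and NGA of 5.96, and a limit of 6 gave a ratio of 2.73. A window of 10 nt gave 4.09. Without the removal of gapped NGG matches, 58 sites met the rule, with a summed share of 2.29%, 31.0% beside NAG, a ratio between NAG and NGA of 2.27 and a ratio to NGG loci with 5 mismatches of 0.482. Over sites listed in both libraries, 15 sites held 1.22%, these ratios were 6.58 and 0.809, and 0.127% of NAG against 0.188% of NGA protospacers were listed. With 3 or 4 mismatches only, 2.10% of NAG, 1.47% of NGA and 0.0335% of other protospacers were listed. With unlisted sites counted as 0, a setting added after seeing the data, the ratio between NAG and NGA was 1.08, so the NAG excess in median share rests on leaving unlisted sites out.

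The count test called 4 of the 27 sites. It called 0 with TMM factors, and 0 of all 689 loci against 183. At an unadjusted p under 0.05, TMM factors gave 3 sites (11.1%) and 16.5% of all loci. DESeq2 called 1 site, gave no adjusted p for 18 of them, and called 39 of all loci higher and 113 lower. Among loci listed in at least 2 libraries, 10 of 15 sites (66.7%) were called, where 83.2% of all loci were called higher. ZBTB5 was among these 10 (edgeR adjusted p = 0.0491), while RASGEF1C (0.06) and CDC40 (0.0609) were not. With a replicate block, edgeR called 0 sites and 0 of all 689 loci. At an unadjusted p under 0.05, the block gave 0 of the 27 sites but 17.7% of all loci. The shared numbers are not stated to pair the libraries, and the replicate differences of the groups had a correlation of 0.133 over 63 loci. Leaving out 1 library gave 0 to 9 calls. Where 1 library of a group was left, it was assumed to vary like the other group. The CDC40 log2 fold change was -0.47 with TMM factors and -0.47 with DESeq2. Adjusted p over all settings ran from 0.000736 to 0.51 for MICB, 0.00243 to 0.51 for CCDC40, 0.00211 to 0.51 for EFCAB11 and 0.0159 to 0.634 for ME3. With all settings counted, 160 of 220 recomputed values were classed as unchanged. Counts of sites or calls were so classed when they stayed within a fixed factor of the main count, so some of these did change. Other values were so classed when they kept their side of the threshold or moved by less than the replicate spread or interval. The causes of the other changes were not tested.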
